A study of Mus musculus with 108 samples.

Results

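The genes described here are nicotinamide nucleotide transhydrogenase (Nnt) and 7 genes of the redox defence of mitochondria, Sod2, Prdx3, Txn2, Txnrd2, Idh2, Gpx1 and Glrx2. They were chosen by name and read through the array's probe sets that the probe table assigns to a single gene. All 3 probe sets of Nnt were used, and for each other gene the probe set with the highest mean log2 signal over all arrays. This gave 10 probe sets of the 21 that belong to the 8 genes, out of 34945 single-gene probe sets for 18193 genes. The signals are log2 values from whole-genome Affymetrix mouse arrays after robust multi-array averaging (RMA), a step that corrects background, equalises arrays and combines the probes of a set. Tissues were taken from males of 6 inbred strains at 11 to 14 weeks of age, with no treatment named in the labels. The strains were AKR/J, A/J, C3HeB/FeJ, C57BL/6J and DBA2/J, supplied by The Jackson Laboratory, and 129S2, supplied by Charles River. Supplier and strain cannot be told apart for 129S2. Brain, heart, kidney, liver, lung and testis were each measured on 18 arrays, 3 a strain. The titles number the arrays by animal, although the protocol text speaks of pools. The tissues of 2 strains came from more than 1 set of animals. For C57BL/6J, brain, heart and lung were from the animals numbered 2, 3 and 4 and kidney, liver and testis from those numbered 10, 11 and 12, so for these 2 groups of tissues a comparison is also one of different C57BL/6J animals. For 129S2 the numbers were 1, 2 and 3 in the first group of tissues and 2, 3 and 4 in the other. Females were not measured, so nothing here bears on sex.

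NNT sits in the inner mitochondrial membrane and uses the proton gradient to pass hydride from NADH to NADP, which makes NADPH in the matrix. Matrix NADPH keeps the peroxide-removing chain of thioredoxin reductase (Txnrd2), thioredoxin (Txn2) and peroxiredoxin (Prdx3) reduced, and it also feeds the glutathione used by Gpx1 and Glrx2. The C57BL/6J substrain is known for an inherited Nnt allele that lacks several internal exons and gives no working protein. The sources used here do not give where the probes of each Nnt probe set lie relative to those exons, so the probe sets measure hybridisation signal and do not read the deletion itself. A sequence difference between strains under a probe can also change the signal.

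Arrays matched their labels by tissue. Of the 6 tissue marker lists, the one for the tissue named in the label had the highest mean on every array. The lowest correlation between replicate arrays was 0.980. The median signal of an array lay between 6.80 and 6.83 in lung and between 4.95 and 5.01 in liver. Levels were therefore compared between strains within a tissue and not between tissues. The number of arrays, 3 a strain and tissue, limits the precision of every mean given here. The tissues are bulk samples, in which fewer cells of a type and less RNA per cell cannot be told apart.

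The strains differed in Nnt in every tissue, and C57BL/6J had the lowest mean in 5 of them. Its difference from the other strains was widest in liver and lung, smaller in kidney and brain, and smallest in heart, where it did not pass, and testis. Nnt probe set 1416105_at, the brightest of the 3, is given array by array. In liver the C57BL/6J arrays read 8.40, 8.60 and 8.65, against 10.47, 10.50 and 10.58 in A/J, 10.24, 10.27 and 10.30 in 129S2, 9.92, 10.05 and 10.27 in C3HeB/FeJ, 9.87, 9.97 and 10.09 in AKR/J and 9.87, 10.00 and 10.06 in DBA2/J. Every C57BL/6J liver lay below every other liver, and A/J lay above all the rest, while 129S2, C3HeB/FeJ, AKR/J and DBA2/J overlapped with their neighbours in the order of means. The C57BL/6J mean was 8.55 ± 0.134 (SD, n = 3), a log2 difference of -1.62 (SE 0.0722, 95% interval -1.77 to -1.46) from the mean of the other 5 strains. That is 3.06-fold lower signal, with an adjusted p of 1.3e-11 by limma's moderated test. Macrophage markers stood apart in the same livers. Their mean was 7.99 to 8.52 on the C57BL/6J arrays and at most 7.83 on the others, and 8 of 10 markers passed the strain test. C57BL/6J also had the highest macrophage marker mean in kidney (7.38, with arrays overlapping AKR/J) and brain (7.67, overlapping A/J). The brain markers went both ways, with C57BL/6J above A/J for C1qb (9.85 against 8.95), C1qa and Mrc1. In brain A/J was above C57BL/6J for Csf1r (11.47 against 11.09), Cd68, Lyz2, Cd14, Adgre1 and Marco, and Msr1 was level at 6.10. In lung C57BL/6J had the highest neutrophil marker mean (8.83, arrays 8.11 to 9.44, overlapping other strains). The part of these cells in the C57BL/6J values was not tested.

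**Figure D1:**
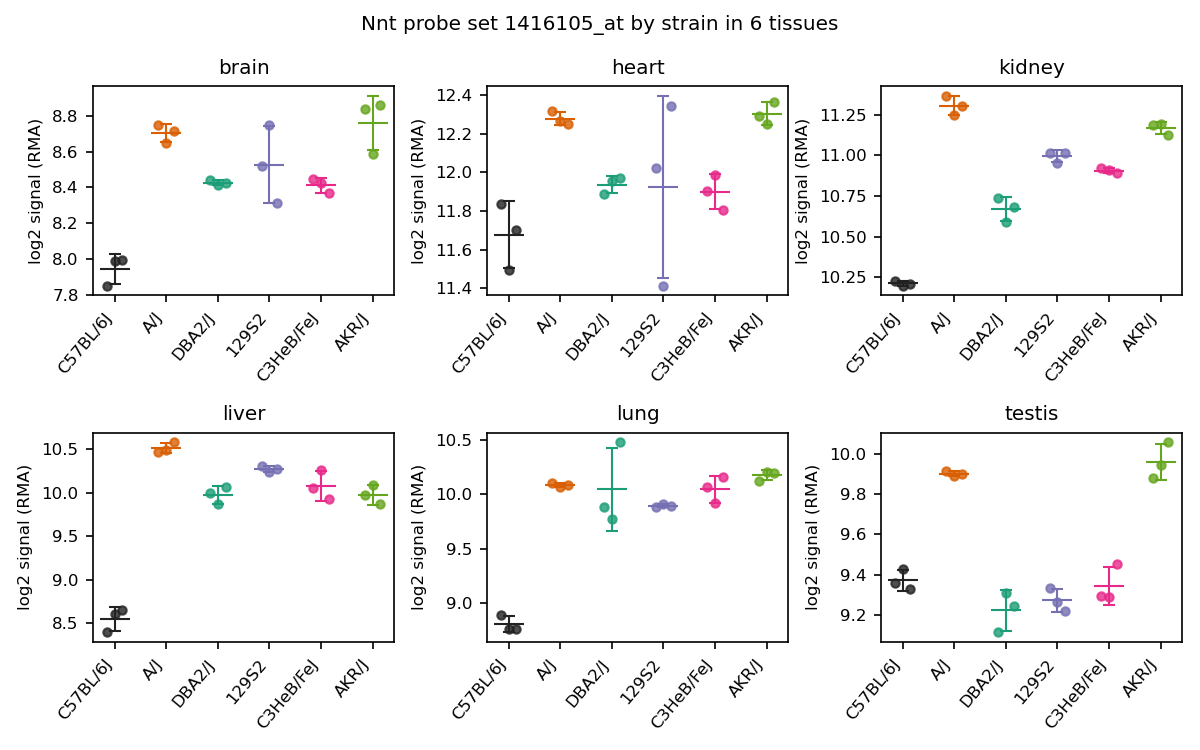
Log2 signal of Nnt probe set 1416105_at (vertical axis, a separate scale for each tissue) for the 6 strains in 6 tissues. Points are single arrays, the horizontal bar is the mean and the whiskers are 1 SD (n = 3). C57BL/6J arrays lie below all others in brain, kidney, liver and lung, while in testis A/J and AKR/J stand above the other strains.

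In lung the C57BL/6J arrays read 8.76, 8.77 and 8.89 and those of AKR/J 10.12, 10.20 and 10.21. The A/J arrays read 10.06, 10.08 and 10.10, C3HeB/FeJ 9.92, 10.07 and 10.16, and 129S2 9.88, 9.89 and 9.91. The DBA2/J arrays were the most spread, at 9.78, 9.88 and 10.48. C57BL/6J again lay below all 15 other arrays, by a log2 difference of -1.24 (SE 0.0981, adjusted p 1.5e-07), or 2.37-fold. Apart from C57BL/6J, neighbouring strains overlapped in lung except AKR/J and A/J.

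Kidney gave a full order of strains. The C57BL/6J arrays read 10.20, 10.21 and 10.23, DBA2/J 10.59, 10.68 and 10.74, and C3HeB/FeJ 10.89, 10.91 and 10.92. Above them came 129S2 at 10.95, 11.01 and 11.02, AKR/J at 11.13, 11.18 and 11.19, and A/J at 11.25, 11.30 and 11.37. No array of a strain overlapped with the next strain in this order, although the step from C3HeB/FeJ to 129S2 was small. The C57BL/6J difference was -0.79 on the log2 scale (SE 0.0442, adjusted p 1.9e-10). DBA2/J was also lower than the mean of the other strains, at -0.25 (adjusted p 0.00049), while A/J was higher by 0.51 (adjusted p 1.4e-07) and AKR/J by 0.35 (adjusted p 1.8e-05). These contrasts share arrays, since each strain is set against the mean of the other 5.

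In brain the C57BL/6J arrays read 7.85, 7.99 and 8.0, and the lowest of the other 15 was a 129S2 array at 8.32. The C57BL/6J mean was 7.94 ± 0.0822 and the difference from the other strains -0.62 (SE 0.0689, adjusted p 6.3e-06), or 1.54-fold. AKR/J (8.59, 8.84 and 8.86) and A/J (8.65, 8.72 and 8.75) were highest, and overlapped with 129S2 (8.32, 8.52 and 8.75). DBA2/J (8.41, 8.42 and 8.44) and C3HeB/FeJ (8.37, 8.42 and 8.45) lay between them and C57BL/6J.

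Heart had the same highest pair and the same lowest strain, with overlap. The C57BL/6J arrays read 11.50, 11.70 and 11.84, and AKR/J (12.25, 12.29 and 12.37) and A/J (12.25, 12.27 and 12.32) were highest. DBA2/J read 11.89, 11.95 and 11.97 and C3HeB/FeJ 11.81, 11.91 and 11.99. The 129S2 hearts were spread, at 11.41, 12.02 and 12.34. The strains differed as a whole (range of means 0.625, adjusted p 0.031), but the C57BL/6J difference of -0.39 (SE 0.119) did not pass, with an adjusted p of 0.056. Without the 129S2 heart at 11.41 it was -0.44, with an adjusted p of 0.00066. That array also had the highest mean of macrophage markers in heart, 8.26 against 8.23 on the next array, and of brown fat markers, 8.85 against 8.62, and it had the lowest Sod2, Idh2 and Txnrd2 signals in heart, 12.36, 12.38 and 7.96. The part of other cell types in its low Nnt signal was not tested. The test over all strains in heart was lost on leaving out any of 8 of the 18 arrays (each A/J or AKR/J heart, or C57BL/6J animal 3 or 4), with adjusted p up to 0.0764.

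In testis Nnt split the strains differently. AKR/J read 9.88, 9.95 and 10.06 and A/J 9.89, 9.90 and 9.91, while C57BL/6J read 9.33, 9.36 and 9.43. The other strains lay with C57BL/6J or below it, with C3HeB/FeJ at 9.29, 9.29 and 9.45, 129S2 at 9.22, 9.26 and 9.33 and DBA2/J at 9.11, 9.24 and 9.31. So A/J and AKR/J formed an upper group that did not overlap with the 4 other strains, and DBA2/J had the lowest mean. AKR/J was higher than the mean of the others by 0.54 (adjusted p 5.1e-07) and A/J by 0.47 (adjusted p 4.6e-06). The C57BL/6J difference was -0.17 (SE 0.0524, adjusted p 0.032), which was lost without animal 10 (adjusted p 0.111) or animal 12 (adjusted p 0.165). Markers of Leydig cells, the steroid-making cells of the testis, were highest in AKR/J at a mean of 10.89, against 10.07 in A/J and 9.78 to 9.98 elsewhere. Macrophage markers were also highest in AKR/J testis, at 7.42 against 6.98 in A/J and 6.86 to 7.06 elsewhere. The part of these cells in the Nnt split of testis was not tested.

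The second Nnt probe set, 1456573_x_at, whose suffix marks probes that can match other sequences, gave like differences for C57BL/6J. They were -1.70 in liver, -1.35 in lung, -0.85 in kidney and -0.71 in brain on the log2 scale, with adjusted p of 2.6e-10, 2.8e-07, 1.8e-07 and 1.1e-05. In these 4 tissues every C57BL/6J array lay below every other array. In heart (-0.31, adjusted p 0.23) and testis (-0.25, adjusted p 0.15) it did not pass. The AKR/J and A/J testes were again highest, at means of 9.99 and 9.86 against 9.10 to 9.22. The third probe set, 1432608_at, was dim, with a mean of 4.71 over all arrays, and gave no C57BL/6J difference that passed in any tissue. Its strain test passed in heart alone (adjusted p 0.026), where AKR/J was highest at 4.64 and DBA2/J lowest at 4.11, and that call was lost when the 18 hearts were quantile normalized once more (adjusted p 0.0507) and without DBA2/J animal 1 (adjusted p 0.077) or 3 (adjusted p 0.073).

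Averaged over the 6 tissues in 1 fit with the animal as a random block, Nnt 1416105_at was lower in C57BL/6J by 0.81 on the log2 scale (difference -0.81, SE 0.0347, adjusted p 1.6e-34). The size of the difference depended on the tissue (F = 42.5, adjusted p 4.7e-19), as it did for 1456573_x_at (mean -0.86, F = 25.0). For the dim probe set 1432608_at the mean was -0.02 (SE 0.0326, adjusted p 0.78). Over all probe sets, 17.7% were lower and 12.4% higher in C57BL/6J by this test, and 38.3% passed the test of dependence on tissue.

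**Figure D2:**
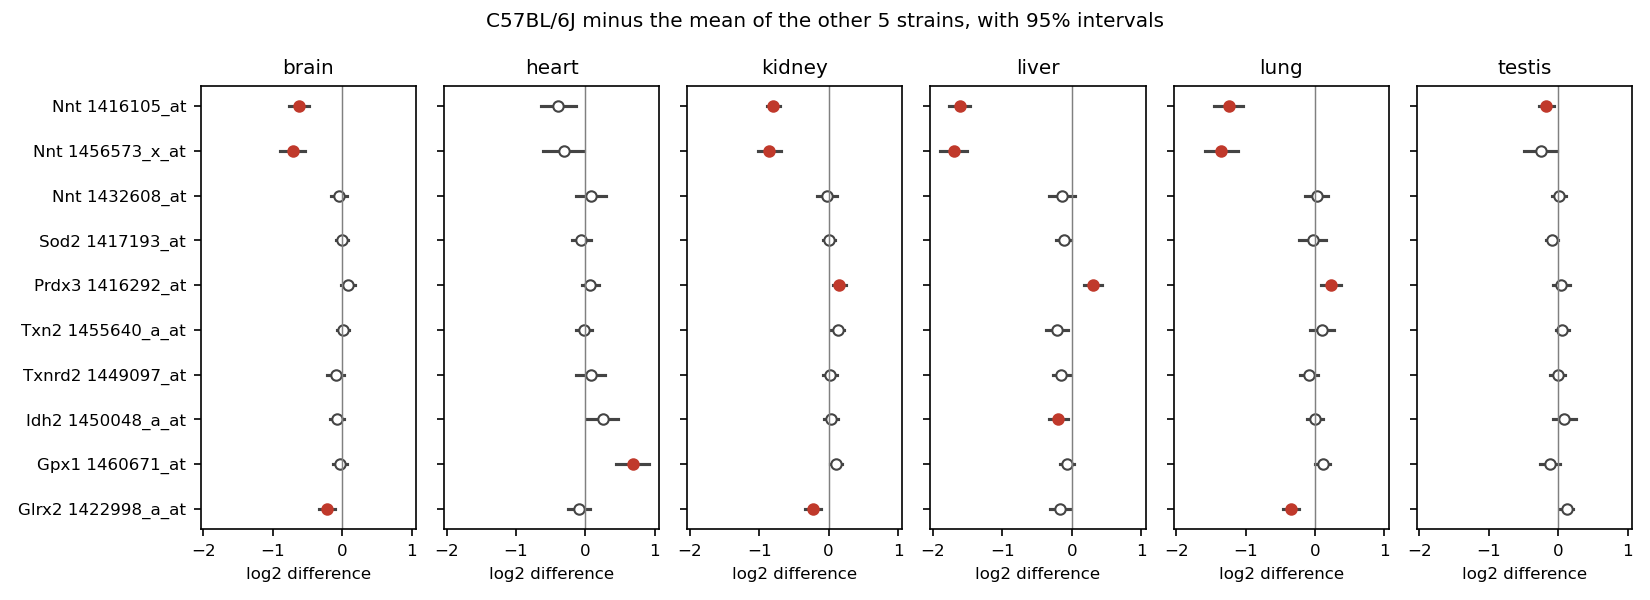
C57BL/6J minus the mean of the other 5 strains (horizontal axis, log2 difference) for the 10 probe sets in each tissue, with 95% intervals. Filled red points passed at an adjusted p under 0.05. The 2 bright Nnt probe sets lie at -1.62 and -1.70 in liver and nearer to 0 in testis, and the largest difference among the other genes is 0.68, for Gpx1 in heart.

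The other 7 genes had strain patterns of their own. The range of strain means of Gpx1 was wider than that of Nnt 1416105_at in heart (1.13 against 0.625) and testis (0.83 against 0.74). With the 3 Nnt probe sets included, the strain test passed for 3 of 10 probe sets in brain, where 21.8% of all single-gene probe sets passed. Liver had 7 of 10 past the test (27.4% of all) and testis 6 of 10 (33%). Lung (31.7%), kidney (41.5%) and heart (19.2%) each had 4 of 10, and the heart count ran from 2 without AKR/J animal 2 to 5 without 129S2 animal 2. Among the 7 genes other than Nnt, 5 passed in liver, 4 in testis, 2 in each of heart, kidney and lung and 1 in brain. The median range of strain means over the 10 probe sets was 0.53 in liver, against 0.26 over all probe sets. In brain it was 0.155, against 0.197 over all. By gene, Nnt and Glrx2 passed in 6 of 6 tissues, Prdx3 in 3, Sod2, Idh2 and Gpx1 in 2, and Txn2 in 1. Txnrd2 passed in 0 by limma, with a lowest adjusted p of 0.178, and in 0 at an unadjusted p under 0.05. In the contrasts of the 5 strains other than C57BL/6J, between 1.57% and 14.4% of all probe sets were called in 1 direction, depending on the strain and the tissue.

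**Figure D3:**
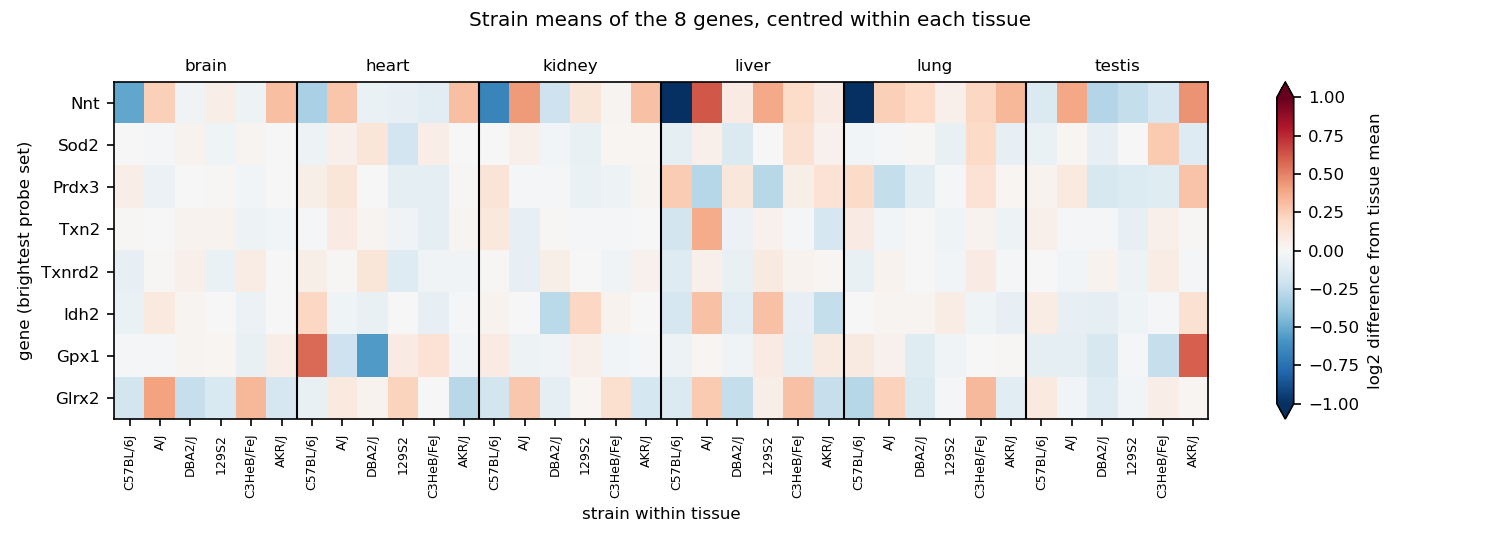
Strain means of the 8 genes (rows), each by its brightest probe set, as log2 differences from the mean of the 6 strains in that tissue (colour, held at -1 and 1). Columns are strains within tissues. Nnt is low in C57BL/6J liver and lung, Glrx2 is high in A/J and C3HeB/FeJ in brain, kidney, liver and lung, and Gpx1 stands out in C57BL/6J heart and AKR/J testis.

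Glrx2, the mitochondrial glutaredoxin that reduces protein-glutathione disulfides, was high in A/J and C3HeB/FeJ and low in the other strains in brain, kidney, liver and lung. Its bases upstream of the gene are shown because, of the 8 genes, it and Nnt were the ones whose strains differed in all 6 tissues. They are from RefSeq on build GRCm38.p6, which holds the reference strain's sequence, and each is the 250 bases before an annotated start on the plus strand. The first and the last of its 4 annotated starts are shown, at chr1:143739099-143739348 and chr1:143740197-143740446. Capitals mark a CCAAT box read on the other strand (ATTGG).
Glrx2 upstream of the first start: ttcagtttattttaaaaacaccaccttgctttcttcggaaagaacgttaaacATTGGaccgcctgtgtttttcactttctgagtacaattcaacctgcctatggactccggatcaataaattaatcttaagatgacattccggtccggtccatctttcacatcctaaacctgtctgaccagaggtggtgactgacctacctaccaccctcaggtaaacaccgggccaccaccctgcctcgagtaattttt
Glrx2 upstream of the last start: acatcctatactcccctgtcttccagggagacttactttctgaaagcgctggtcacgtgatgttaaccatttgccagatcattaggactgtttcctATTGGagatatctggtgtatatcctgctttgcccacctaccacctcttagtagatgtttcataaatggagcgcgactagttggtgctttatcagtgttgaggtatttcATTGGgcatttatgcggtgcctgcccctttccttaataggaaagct
The first window holds 1 such box and the last holds 2, while the Glrx2 windows not shown hold 0. Windows were found for 7 of the 8 genes, 10 in all, and Nnt had none. Of the 10, 4 belong to Glrx2 and some of these overlap, so the windows are not 10 separate stretches. The CCAAT box, searched on both strands, was in 5 of these 10 and in 33.9% of 32851 windows of the same length. The antioxidant response element (TGACNNNGC, both strands), the motif bound by the stress factor NRF2, was in 0 of the 10 and in 10.2% of all windows. A match is a description of the letters, and says nothing of a factor at the site.

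In brain the Glrx2 arrays (probe set 1422998_a_at) read 10.02, 10.06 and 10.11 in A/J and 9.91, 9.95 and 10.10 in C3HeB/FeJ. C57BL/6J read 9.37, 9.50 and 9.56, AKR/J 9.46, 9.49 and 9.52, 129S2 9.40, 9.49 and 9.62, and DBA2/J 9.36, 9.42 and 9.50. The strains fell into a high pair and a low group of 4 with no array between them. A/J was higher than the mean of the others by 0.49 (SE 0.0527, adjusted p 9.4e-06) and C3HeB/FeJ by 0.39 (adjusted p 0.00012), and the test over all 6 strains gave an adjusted p of 1.5e-06. In lung the pair read 9.05 to 9.20 in A/J and 9.15 to 9.26 in C3HeB/FeJ, above 8.52 to 8.95 in the rest, and C57BL/6J was lowest at 8.61 ± 0.0873 (difference -0.34, adjusted p 0.00041). In liver the pair had means of 8.63 and 8.65 against 8.12 to 8.42. In kidney the means were 9.33 and 9.22 against 8.88 to 9.08.

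**Figure D4:**
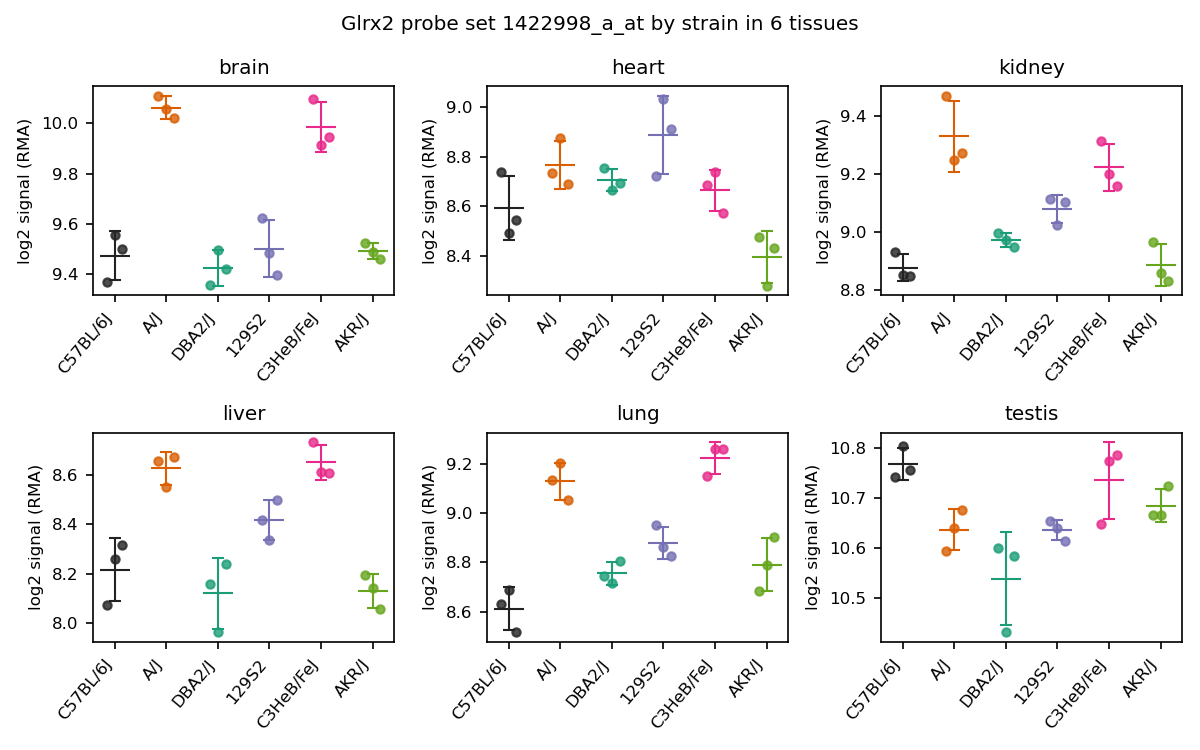
Log2 signal of Glrx2 probe set 1422998_a_at (vertical axis, a separate scale for each tissue) for the 6 strains in 6 tissues, with points for arrays, a bar for the mean and whiskers of 1 SD (n = 3). A/J and C3HeB/FeJ stand above the other strains in brain, kidney, liver and lung, and not in heart or testis.

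Heart and testis did not share this order. In heart 129S2 was highest, at 8.72, 8.91 and 9.03, and AKR/J lowest, at 8.28, 8.43 and 8.48 (difference -0.33, adjusted p 0.012). In testis the means lay between 10.54 in DBA2/J and 10.77 in C57BL/6J, and the strain test passed with an adjusted p of 0.0469, which was lost on leaving out any array but 1 (17 of 18, adjusted p up to 0.151). The heart call was lost without AKR/J animal 2 (adjusted p 0.0569). The other Glrx2 probe sets, 1437679_a_at and 1437680_x_at, passed in brain, kidney, liver and lung too, with A/J and C3HeB/FeJ as the highest strains in each, and in neither heart nor testis. In the average over tissues Glrx2 was lower in C57BL/6J by a log2 difference of -0.15 (SE 0.0230, adjusted p 4.2e-08), with dependence on tissue (F = 8.21).

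Prdx3, the mitochondrial peroxiredoxin that clears most matrix hydrogen peroxide, was higher in C57BL/6J in 3 tissues. Its liver arrays read 10.47, 10.49 and 10.53 in C57BL/6J, above all 15 others. AKR/J read 10.31, 10.41 and 10.43, DBA2/J 10.25, 10.38 and 10.42 and C3HeB/FeJ 10.21, 10.30 and 10.39, while 129S2 (9.88, 9.98 and 10.02) and A/J (9.87, 9.93 and 10.05) formed a low pair. The C57BL/6J difference was 0.31 (SE 0.0590, adjusted p 0.0011), or 1.24-fold. A/J and 129S2 were lower than the mean of the others by -0.35 and -0.33 (adjusted p 0.00054 and 0.00071). Prdx3 was also higher in C57BL/6J kidney, where its arrays (11.46, 11.47 and 11.53) lay above all others and the difference was 0.16 (adjusted p 0.014, though the test over all 6 strains gave 0.0559), and in lung, by 0.23 (adjusted p 0.033). The C57BL/6J differences of 0.08 in brain, 0.07 in heart and 0.05 in testis did not pass. Over the 6 tissues the mean difference was 0.15 (SE 0.0214, adjusted p 1.6e-08). In testis AKR/J was highest, at 8.56, 8.80 and 8.80 (difference 0.34, adjusted p 0.0003), the strain that was also highest there for Gpx1 and Nnt.

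The thioredoxin and its reductase passed in few tissues by their brightest probe sets. Txn2, the thioredoxin that reduces Prdx3, passed in liver alone. Its strain means there spanned 0.556, against a median of 0.262 over all probe sets. A/J livers read 8.99, 9.07 and 9.44 against 8.52 to 8.92 in the other strains, a difference of 0.45 (SE 0.0739, adjusted p 0.00038). The 2 other Txn2 probe sets had A/J highest in liver as well but did not pass (adjusted p 0.116 and 0.395). Txnrd2, which passes electrons from NADPH to Txn2, did not pass in any tissue by its brightest probe set, with ranges of strain means of 0.129 to 0.247. In liver 2 of its 3 dimmer probe sets passed, 1451936_a_at (adjusted p 0.0247) and 1429972_s_at (adjusted p 0.0216). On both, C57BL/6J was lowest, by -0.25 and -0.26 (adjusted p 0.012 and 0.0037), as it was on 1429971_at (-0.18, adjusted p 0.038). In the tissue average Txnrd2 and Txn2 did not pass in C57BL/6J, with 95% intervals of the difference of -0.09 to 0.01 and -0.04 to 0.06.

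Idh2, the NADP-dependent isocitrate dehydrogenase of the matrix and another source of NADPH there, differed in liver and kidney. In liver 129S2 read 9.43, 9.50 and 9.60 and A/J 9.43, 9.53 and 9.56, above all 12 arrays of the other strains (8.91 to 9.31). These 2 strains were higher than the mean of the others by 0.36 and 0.35 (adjusted p 0.0010 and 0.0011), and are the same pair that was low for Prdx3 in liver. In kidney 129S2 was highest (11.72, 11.79 and 11.83) and DBA2/J lowest (11.25, 11.27 and 11.39), with differences of 0.25 (adjusted p 0.0010) and -0.32 (adjusted p 8.7e-05). C57BL/6J stood low in liver, by -0.20 (adjusted p 0.047), although AKR/J had a lower mean (8.97 against 9.05). In heart the C57BL/6J arrays had the highest mean, 12.98 ± 0.0962, but the difference of 0.25 did not pass (adjusted p 0.20). Over tissues the C57BL/6J difference was 0.02 (95% interval -0.04 to 0.07). A dimmer Idh2 probe set, 1453601_at with a mean of 5.43, passed in brain, kidney, liver and lung with other strains in front, DBA2/J or C3HeB/FeJ. It turned 2 of the places above: DBA2/J was highest in kidney (6.15) and A/J lowest in liver (4.68). The low DBA2/J kidney and the high A/J liver thus rest on the brighter probe set.

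Sod2, the matrix enzyme that turns superoxide into hydrogen peroxide, passed in liver and testis. C3HeB/FeJ was highest in both, at 11.36, 11.40 and 11.44 in testis against 10.98 to 11.21 in the other strains (difference 0.31, SE 0.0410, adjusted p 3.5e-05). Sod2 probe set 1448610_a_at gave the same strain as highest in testis, by 0.36 (adjusted p 2.4e-05). In liver C3HeB/FeJ read 11.39, 11.42 and 11.46 against 11.09 to 11.35, a difference of 0.18 (adjusted p 0.047), while on 1448610_a_at AKR/J was highest there. The liver strain test (adjusted p 0.0217) was lost without C3HeB/FeJ animal 2, DBA2/J animal 1 or DBA2/J animal 2, with adjusted p of 0.0506 to 0.0571. In heart 129S2 read 12.36, 12.53 and 12.74, below the mean of the others by a difference of -0.23 (adjusted p 0.038), although the test over all strains did not pass (adjusted p 0.0974). On 1448610_a_at that test passed in heart (range 0.443, adjusted p 0.0237) and in kidney (range 0.266, adjusted p 0.0261), with 129S2 lowest in both. In lung the C3HeB/FeJ arrays read 11.02, 11.05 and 11.62. The array at 11.62, of animal 3, also had the highest means of brown fat (9.85), adipose (9.78) and skeletal muscle (9.59) markers in lung, where the next arrays lay at 7.49, 8.56 and 6.38, and the highest Prdx3 and Txn2 signals in lung (10.55 and 10.17). The part of other tissue in these values was not tested.

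Gpx1, a glutathione peroxidase found in cytosol and mitochondria, had the widest range among the 7 genes, in 2 tissues and by different strains. In heart C57BL/6J read 11.51, 11.70 and 11.75 and DBA2/J 10.40, 10.50 and 10.66. Between them lay A/J at 10.79, 10.81 and 11.02, AKR/J at 10.94, 11.09 and 11.14, 129S2 at 11.01, 11.20 and 11.29, and C3HeB/FeJ at 10.91, 11.09 and 11.68. C57BL/6J was higher than the mean of the others by 0.68 (SE 0.114, adjusted p 0.00069) and DBA2/J lower by -0.68 (adjusted p 0.00064). The 2 means were 2.19-fold apart.

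Red blood cells and their precursors hold much Gpx1, and the erythroid markers of heart had the same highest and lowest strains, though not the same order between them. Of 8 such markers 5 were measured by a single-gene probe set, and their mean was highest in C57BL/6J (arrays 5.93 to 6.43) and lowest in DBA2/J (5.06 to 5.36). Alas2, the first enzyme of erythroid heme synthesis, ran from 11.85 in C57BL/6J to 8.83 in DBA2/J, and Slc4a1, the red cell anion exchanger, from 8.11 to 5.70. Epb42, Hba-a1 and Rhag were dim in every strain, between 3.09 and 4.68, and did not pass. The C3HeB/FeJ heart with Gpx1 at 11.68 had an erythroid mean of 6.16, against 5.28 and 5.17 in the others of its strain. Its neutrophil marker mean, 6.84, was the highest in heart as well. The other C3HeB/FeJ hearts, with Gpx1 at 11.09 and 10.91, had lower erythroid means than any A/J heart. The A/J hearts had erythroid means of 5.47 to 5.70, with Gpx1 at 10.79 to 11.02. The part of blood cells in the Gpx1 difference was not tested.

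**Figure D5:**
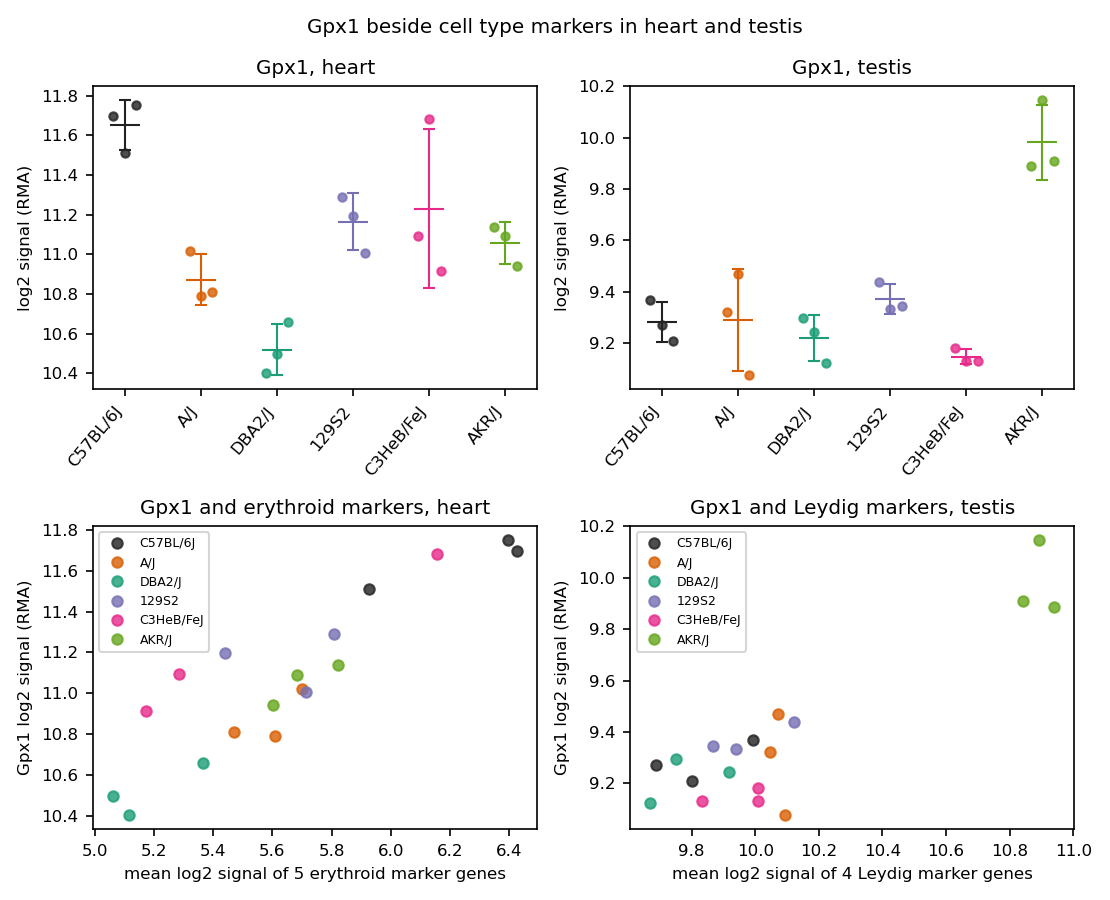
Upper panels show Gpx1 log2 signal by strain in heart and testis (points are arrays, with the mean and 1 SD, n = 3). Lower panels plot Gpx1 (vertical axis) against the mean log2 signal of 5 erythroid markers in heart and 4 Leydig cell markers in testis (horizontal axis), 1 point an array. C57BL/6J hearts and the C3HeB/FeJ heart at 11.68 lie high on both axes, and the 3 AKR/J testes lie apart from the 15 others on both.

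In testis AKR/J stood alone for Gpx1, at 9.89, 9.91 and 10.15 against 9.08 to 9.47 on the 15 other arrays. The difference was 0.72 (SE 0.0692, adjusted p 4.5e-07), or 1.64-fold. AKR/J testes also had the highest means of Leydig (10.84 to 10.94 against 9.67 to 10.12) and macrophage markers (7.37 to 7.48 against 6.82 to 7.09), with no overlap with other strains. Of the 4 Leydig markers measured, all passed, and Hsd17b3, which makes testosterone, ran from 8.60 in C57BL/6J to 10.40 in AKR/J. The part of these cells in the testis difference was not tested. In brain, kidney, liver and lung Gpx1 did not pass, and its strain means spanned 0.138 to 0.210. In the tissue average Gpx1 was higher in C57BL/6J by 0.11 (SE 0.0276, adjusted p 0.00064), with dependence on tissue (F = 19.7), and its within-tissue differences for C57BL/6J were 0.68 in heart and between -0.12 and 0.11 elsewhere.

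For C57BL/6J, then, the 7 other genes differed in both directions. Within tissues 4 calls were higher, Gpx1 in heart and Prdx3 in kidney, liver and lung. The lower calls were also 4, Glrx2 in brain, kidney and lung and Idh2 in liver. For Glrx2 in brain C57BL/6J lay within the low group of 4 strains, above DBA2/J (9.47 against 9.42). For Glrx2 in kidney C57BL/6J was level with AKR/J (8.877 against 8.885). For Idh2 in liver AKR/J was lower than C57BL/6J (8.97 against 9.05). The count of calls in testis was 0 by limma, against 1 higher at an unadjusted p under 0.05. At that unadjusted p the higher and lower counts were 1 and 5 in liver and 3 and 1 in kidney. They were 2 and 0 in heart, 2 and 1 in lung and 0 and 1 in brain. No share of all probe sets was taken at the unadjusted p, so these unadjusted counts have no background here. Over all probe sets, 8.42% were called higher and 7.85% lower in C57BL/6J liver at the adjusted threshold. The shares were 5.59% and 5.68% for lung, 9.47% and 9.27% for kidney and 7.35% and 9.21% for testis. For brain they were 6.09% and 6.28%, and for heart 2.84% and 4.08%.

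The genes around Nnt on chromosome 13 were read to see which strains differ there. Measured neighbours were Fgf10, 1700003P14Rik and Mrps30 on one side and Paip1, 4833420G17Rik and 3110070M22Rik on the other, in the order of the RefSeq gene table. The strains divided sharply at 4833420G17Rik, into C57BL/6J, A/J and AKR/J with high signal and DBA2/J, 129S2 and C3HeB/FeJ with low signal, in 6 of 6 tissues. In kidney, for example, the means were 9.72, 9.78 and 9.76 against 8.30, 8.20 and 8.30 (adjusted p 4.2e-12), and in liver 9.04, 9.06 and 9.18 against 7.65, 7.85 and 7.37. 3110070M22Rik divided the same strains in testis, at 9.46, 9.43 and 9.52 against 8.38, 8.44 and 8.65 (adjusted p 9.8e-10). Nnt did not follow that division, since C57BL/6J was low for Nnt and high for 4833420G17Rik in liver.

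Testis gave another division beside Nnt. 1700003P14Rik was low in A/J and AKR/J, at 6.15 and 6.45, and between 8.24 and 8.36 in the 4 other strains (adjusted p 4.9e-14), which is the Nnt split of testis with the sign turned. Paip1, a factor of translation initiation, was at 7.54 in C57BL/6J, 7.65 in A/J and 7.75 in AKR/J, against 8.43, 8.33 and 8.26 (adjusted p 6.7e-06). Mrps30, a protein of the mitochondrial ribosome, spanned at most 0.381, and the strain test of Fgf10, a growth factor, had adjusted p of 0.0813 or more. No neighbour was called lower in C57BL/6J liver, where Paip1 was at 8.22 against 8.15 to 8.27 in the other strains. Elsewhere C57BL/6J was lower for Paip1 in testis (-0.54) and kidney (-0.21), for Mrps30 in kidney (-0.20) and for Fgf10 in lung (-0.31, adjusted p 0.037).

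The genes most like Nnt were sought by Pearson correlation of the 36 strain means by tissue, each centred on its tissue, among 11709 genes with a mean log2 signal of at least 6. They were Pik3ap1 (r = 0.83), Haus4 (r = 0.80), Ndufa12 (r = 0.80), Abca3 (r = 0.80) and Tvp23b (r = 0.80). The 36 points share arrays and animals, so the correlation is a description only. Pik3ap1, a signalling adaptor of B cells and macrophages, read 6.75 in C57BL/6J liver against 9.37 to 10.83, and 7.04 in C57BL/6J lung against 9.44 to 10.21. Abca3, a lipid transporter, read 8.23 in C57BL/6J liver against 9.94 to 10.20. Ndufa12, a subunit of respiratory complex I, read 10.78 in C57BL/6J liver against 11.32 to 11.47 and 10.88 in lung against 11.19 to 11.53.

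Other genes of the NADPH, thioredoxin and glutathione systems were read from named lists, 1 probe set a gene. The shares of all probe sets past the same tests, given above, are the background of the counts at the adjusted threshold. Counts at an unadjusted p have no such background here. In the NADPH supply list 11 of 12 genes were measured, and 9 passed in both testis and kidney, 6 in heart, 4 in lung and 3 in both brain and liver. In C57BL/6J testis 1 was called higher and 6 lower, in kidney 1 and 3 and in heart 1 and 1. Liver had 1 higher and 0 lower by limma, against 2 lower at an unadjusted p under 0.05. In brain and lung 2 were called lower and 0 higher by limma (0 also at an unadjusted p under 0.05). The lowest strain for Me3, the mitochondrial malic enzyme that also makes NADPH, was C57BL/6J in brain (8.57 ± 0.0851, against 9.46 in C3HeB/FeJ), kidney (8.26 ± 0.0611, against 8.91 in 129S2) and lung (6.41 ± 0.0671, against 7.30 ± 0.477 in C3HeB/FeJ). The C3HeB/FeJ lungs include that of animal 3, with its high adipose and muscle markers, and the part of other tissue in the lung value was not tested. Mthfd2l, a mitochondrial folate enzyme, was lowest in C57BL/6J testis too, at 7.33 ± 0.266 against 8.66 in A/J. Idh1, the cytosolic partner of Idh2, ranged over 1.15 in testis, from 9.19 in DBA2/J to 10.34 in AKR/J.

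Of the thioredoxin and peroxiredoxin list, 9 of 12 genes were measured. Testis had 8 past the test, kidney 6, brain 5, heart and liver 4 and lung 2, and the C57BL/6J calls went both ways. Higher and lower calls were 1 and 2 in brain, 2 and 1 in kidney, 1 and 3 in liver and 1 and 2 in testis. In heart 3 were lower and 0 higher (0 also at an unadjusted p under 0.05), and in lung there were 0 calls by limma, against 2 higher at an unadjusted p under 0.05. Txnip, the protein that binds and inhibits thioredoxin, had the widest range in 4 tissues. In heart it ran from 10.92 ± 0.0831 in C57BL/6J to 11.94 ± 0.182 in DBA2/J (adjusted p 0.00028), whereas in brain and kidney C57BL/6J was highest.

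In the glutathione list 11 of 12 genes were measured and 7 passed in kidney, 6 in heart, 5 in liver, 4 in lung and testis and 3 in brain. In C57BL/6J higher and lower calls were 1 and 3 in kidney and 1 and 2 in both heart and liver. Brain had 0 higher and 3 lower, testis 0 and 1, and lung 1 and 0 by limma. At an unadjusted p under 0.05 these zeros were also 0. Glrx, the cytosolic glutaredoxin, was lowest in C57BL/6J in kidney, at 9.28 ± 0.0788 against 10.30 in C3HeB/FeJ, and in liver, at 8.79 ± 0.0793 against 10.04 in 129S2 (adjusted p 3.2e-08). Gss, which makes glutathione, spanned 1.84 in testis, from 6.14 in A/J to 7.98 in 129S2 (adjusted p 5.8e-15). Gpx3, the secreted peroxidase, spanned 2.05 in heart and 2.32 in testis, where AKR/J was highest with a wide spread (10.16 ± 0.909). Gclm, the modifier of the rate-limiting enzyme of glutathione synthesis, was highest in C57BL/6J and lowest in DBA2/J in heart, at 8.50 ± 0.240 and 7.24 ± 0.0581, as Gpx1 was.

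Targets of the stress factor NRF2 were all measured, 10 of 10, and share Gclc, Gclm, Txnrd1 and Srxn1 with the lists above. Testis had 9 past the test, kidney 8, liver 7, lung 5, heart 4 and brain 3. In C57BL/6J 5 were called higher in kidney, 4 in testis, 3 in lung and 1 in heart, and in both brain and liver 1 was higher and 1 lower. The lower count in kidney, testis, lung and heart was 0 by limma, against 1 in testis and 0 in the other 3 at an unadjusted p under 0.05. Gsta3, a glutathione transferase, was at 9.77 ± 0.0503 in C57BL/6J kidney and 8.11 ± 0.137 in DBA2/J (adjusted p 4.5e-10), and Ephx1, an epoxide hydrolase, was highest in C57BL/6J brain and heart and lowest in DBA2/J. A further list held 4 genes for removal of superoxide and peroxide that are not among the 8 genes described here. Of these, 3 passed in kidney, 2 in brain, liver and testis and 1 in lung. In heart 0 passed by limma, where 1 had an unadjusted p under 0.05. Cat, catalase, ran in testis from 6.22 in DBA2/J to 6.87 in AKR/J.

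General mitochondrial genes were read as well. Of 15 listed 13 were measured, and 7 passed in testis, 5 in liver, 4 in kidney and 2 in heart and lung. In brain 0 passed by limma, and 0 had an unadjusted p under 0.05. In C57BL/6J 4 were called lower in both liver and kidney and 1 in testis. Their median range of strain means was 0.27 in liver, close to the 0.26 of all probe sets, where Nnt spanned 1.97. Slc25a4, the ADP/ATP carrier, had the widest range in liver, 0.512, with A/J highest.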

How the data were processed

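Total RNA of each tissue was hybridised to whole-genome Affymetrix mouse arrays, 1 array for each animal number and tissue. The authors deposited 1 table of log2 values made with RMA, per the submitters' processing notes, with 45101 probe sets. The sources used here do not say if all tissues went through RMA as 1 set, so levels were compared within a tissue. Of the probe sets 64 were controls, 932 carried several genes and 9160 no listed gene, which left 34945. Of these 34741 matched the GRCm38.p6 gene table. RMA shrinks differences of dim probe sets, and unlike sequences under the probes can change a signal.

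From the deposited log2 values limma 3.58.1 (R 4.3.3) was fitted to the 18 arrays of a tissue. A moderated F test compared the 6 strains, and each strain was set against the mean of the other 5. The average over tissues and the dependence on tissue came from 1 fit with the animal as a random block (statmod 1.5.0, correlation 0.0152). P-values were Benjamini-Hochberg adjusted over all 34945 probe sets, with a threshold of 0.05. The F test of strains was tried on simulated data for brain and heart. The single-strain contrasts and the fit over tissues were not tried in this way. Figures used Python 3.11.15, pandas 2.3.3 and matplotlib 3.10.9.

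The titles number animals, 22 in all, and disagree with the source names on the number of 4 129S2 arrays (3 of brain, 1 of kidney). The title was used, and with the other label the block correlation was 0.00983. The labels' protocol text speaks of pools, so p-values measure only the spread between these samples. Numbers shared by strains were not taken to pair animals. Same-numbered arrays of different strains had median correlations of their deviations of -0.027 to 0.0969. Single pairs ran from -0.587 in brain to 0.517 in heart. In testis the median was 0.0969, against -0.014 for arrays of unlike numbers, and in kidney 0.057 against -0.011. Genes and lists were chosen with earlier results of these data known. Named are the 8 genes, the 3 measured neighbours of Nnt on each side, from each list and tissue the gene with the widest range past the threshold or any with a range of at least 1, and the 5 genes most correlated with Nnt. Alternatives were 1 probe set a gene, another prior, a filter on dim probe sets, a further quantile normalization, the replicate number as a block, second probe sets and leaving out each array.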

Additional observations from a re-analysis of the deposited data

Results flagged for a closer look

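For 7 probe sets the C57BL/6J difference from the other 5 strains was not of 1 size across the tissues, by limma's F test of that dependence adjusted over all probe sets. The C57BL/6J brains, hearts and lungs came from other animals than the kidneys, livers and testes, so tissue and animal set cannot be told apart between these groups. Nnt gave F = 42.5 (1416105_at, adjusted p 4.7e-19) and F = 25.0 (1456573_x_at, adjusted p 2.1e-13), with the difference at -1.62 and -1.70 in liver and -0.17 and -0.25 in testis. Gpx1 gave F = 19.7 (adjusted p 3.1e-11), with 0.68 in heart and -0.12 in testis. Glrx2 gave F = 8.21 (adjusted p 2.3e-05), with -0.34 in lung and 0.12 in testis. Txn2 gave F = 4.91 (adjusted p 0.0026), from -0.22 in liver to 0.13 in kidney, although neither of these passed within its tissue. Idh2 gave F = 4.63 (adjusted p 0.0040), from -0.20 in liver to 0.25 in heart. Prdx3 gave F = 4.03 (adjusted p 0.0095), from 0.05 in testis to 0.31 in liver. Of all probe sets, 38.3% passed this test. The part of cell type makeup in these dependences was not tested.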

How the results depend on the processing

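No C57BL/6J difference changed sign among called values under the alternatives run. Ranges of strain means carry no sign, so a change in the order of strains, as on the dimmer Idh2 probe set, was not followed. The C57BL/6J difference of Nnt 1416105_at in heart, not past the threshold otherwise, passed with the filter on dim probe sets (-0.39, adjusted p 0.0425). On leaving out 1 array it ran from -0.47 to -0.30 in heart, where it passed without 129S2 animal 2 (-0.44) or 3 (-0.35), and from -0.20 to -0.15 in testis, where it was lost without C57BL/6J animal 10 (-0.16) or 12 (-0.15). In the other tissues its call held on leaving out any array, with -1.67 to -1.54 in liver, -1.29 to -1.20 in lung and -0.65 to -0.57 in brain. The count of probe sets of the 8 genes past the strain test in heart ran from 2 to 5. Without C57BL/6J animal 11 the tissue dependence of Txn2 was lost (F = 2.93, adjusted p 0.0545), and without animal 12 that of Prdx3 (F = 2.97, adjusted p 0.0517). The strain test of Prdx3 in kidney passed in 4 of 5 alternatives (adjusted p 0.0046 to 0.056 over the 5), that of Gpx1 in liver in 3 of 5 (0.0020 to 0.10) and that of Gpx1 in kidney in 1 of 5 (0.0034 to 0.21), and Sod2 in heart without 129S2 animal 3 (adjusted p 0.0152). The replicate number as a block gave -1.62 for Nnt in liver and left the member counts at 3 in brain and 4 in heart and kidney. The block changed no call of the C57BL/6J difference of Nnt 1416105_at. With 3 arrays a strain, small differences of dim probe sets are beyond these data.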

Other observations

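Sod3, the secreted superoxide dismutase, was lowest in 129S2 in both brain (6.49 ± 0.365, n = 3) and kidney (11.47 ± 0.0791), while its highest strain was C57BL/6J in brain (7.33 ± 0.0758) and DBA2/J in kidney (11.93 ± 0.0606), with adjusted p of 0.0081 and 0.0015 by limma's strain test. Ccs, the copper chaperone of Sod1, ran in liver from 10.22 ± 0.0213 in DBA2/J to 10.86 ± 0.0727 in 129S2 (adjusted p 0.00013). Sod1, the cytosolic dismutase, was highest in 129S2 in lung as well, at 12.33 ± 0.0659, and lowest in AKR/J, at 11.85 ± 0.0929 (adjusted p 0.0093).

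These genes and the next were the widest in range of their list in a tissue or spanned at least 1. Gclm was at 9.75 ± 0.0412 in DBA2/J liver against 10.86 ± 0.0664 in AKR/J (adjusted p 5.1e-09), and Gpx7 at 4.54 ± 0.322 against 5.62 ± 0.324 in AKR/J (adjusted p 0.0037). Me1, the cytosolic malic enzyme, was lowest in DBA2/J liver too, at 10.75 ± 0.143, against 11.40 ± 0.573 in C3HeB/FeJ (adjusted p 0.048). In heart DBA2/J was the highest strain for Idh1, at 10.52 ± 0.0776 against 9.60 ± 0.0385 in C3HeB/FeJ (adjusted p 1.8e-07), and for Tfam, the factor that packages and transcribes mitochondrial DNA, at 8.79 ± 0.0383 against 8.22 ± 0.118 in C57BL/6J (adjusted p 0.018). Msrb2, the mitochondrial methionine sulfoxide reductase, was highest in DBA2/J testis, at 7.27 ± 0.0502 against 6.26 ± 0.0779 in C3HeB/FeJ (adjusted p 1.4e-07). Hspd1, the mitochondrial chaperonin, ran in lung from 11.06 ± 0.0833 in A/J to 11.79 ± 0.337 in AKR/J (adjusted p 0.0075).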
